A study of Mus musculus with 7 samples.

Results

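The myogenic regulatory factor loci are 3 windows of the mouse genome that hold the genes Myod1, Myog, Myf5 and Myf6. The windows, in the mm9 build, were chr7:53590000-53650000 (Myod1 with its upstream enhancers, 60 kb), chr1:136150000-136220000 (Myog, 70 kb) and chr10:106900000-107080000 (Myf5, Myf6 and their upstream enhancers, 180 kb). A peak belonged to a window when its midpoint fell inside it. By this rule 14 of the 58528 peaks of the authors' anti-Six4 list were members. The Myod1 window held 6, the Myog window 4 and the window shared by Myf5 and Myf6 another 4.

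The peaks came from chromatin immunoprecipitation followed by sequencing (ChIP-seq) with an antibody to Six4. The cells were C2C12, a mouse myoblast line that fuses into myotubes when serum is lowered, in the form shNS, the control for a second line, in which a short hairpin RNA stably lowers Six4. They had been kept for 24 h in differentiation medium with horse serum. This was 1 of 7 libraries, without a replicate. The other 6 were not analysed here, and they are anti-Six4 in the knockdown line (shSix4), anti-Flag in a line infected with a retrovirus for Flag-Six4-myc, anti-Flag and normal rabbit IgG in parental cells, and input DNA of the parental and shNS lines. How far any peak depends on Six4 is therefore not measured. Whether the shNS line is 1 clone or a pool is not given in the sources used here. The list gives a position and a width for each peak and no score. Its lines are not in genome order, and what they are ordered by is not given in the sources used here, so a line number is printed below as a place in the list only. Read depth is unknown.

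Myod1, Myf5, Myf6 (MRF4) and Myog (myogenin) encode the basic helix-loop-helix proteins that commit cells to skeletal muscle and drive its differentiation. They bind the E-box. Six4 and its relatives of the sine oculis family are homeodomain factors that bind a different element, called MEF3, and act with Eya coactivators upstream of several of these genes. Myf5 and Myod1 act in myoblasts, Myog is switched on as differentiation starts, and Myf6 acts mainly in differentiated fibres. Enhancers of Myod1 and of the Myf5-Myf6 pair lie far upstream of the genes, whereas the Myog promoter is a textbook case of a short promoter with a MEF3 site.

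That promoter is shown because it carries the element that this family binds, and the Myf5 promoter because it is the other one matched. Both are RefSeq sequences of GRCm38.p6, 250 bases before to 50 bases after the start of the transcript. They were matched by symbol for 2 of the 4 genes, and Myod1 and Myf6 were not matched. Capitals mark MEF3 (TCAGGTTNC) and E-box (CANNTG) letters on either strand. The Myog promoter lies at chr1:134289754-134290053 on the plus strand and the Myf5 promoter at chr10:107486085-107486384 on the minus strand. These positions are of a different build from the peaks and cannot be set against them.
Myog: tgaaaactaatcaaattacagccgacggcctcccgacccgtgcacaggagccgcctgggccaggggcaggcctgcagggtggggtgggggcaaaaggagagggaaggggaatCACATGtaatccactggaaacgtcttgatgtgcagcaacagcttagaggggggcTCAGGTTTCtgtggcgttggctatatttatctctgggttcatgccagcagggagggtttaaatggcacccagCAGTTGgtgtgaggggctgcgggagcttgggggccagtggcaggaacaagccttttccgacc
Myf5: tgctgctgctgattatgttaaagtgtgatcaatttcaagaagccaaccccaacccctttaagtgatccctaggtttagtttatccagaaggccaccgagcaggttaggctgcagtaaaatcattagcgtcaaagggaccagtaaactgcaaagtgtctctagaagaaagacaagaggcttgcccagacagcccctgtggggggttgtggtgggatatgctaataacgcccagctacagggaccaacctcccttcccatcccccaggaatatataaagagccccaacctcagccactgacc

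The Myog promoter held 1 MEF3 match, TCAGGTTTC, whose first base lay 84 bases before the start site. It held 2 E-box matches, CACATG starting 138 bases before the start and CAGTTG starting 12 bases before it. MEF3 letters were found in 399 of 32851 promoters of the same length (1.21%), and E-box letters in 72.3%. The Myf5 promoter had neither set of letters, which says only that they are not in this window. It had 1 match, CTAGGTTTAG, to a loose MEF2 pattern (CTA and TAG with any 4 bases between), found in 3.69% of promoters. That match started 182 bases before the start site. The pattern allows any bases in the middle, which in the Myf5 match are GGTT, and misses sites with other end letters. The Myog promoter holds ctatatttat, which differs from the pattern in its last letter only and was not counted. Whether either promoter holds a MEF2 site was therefore not determined. Neither promoter held the E-box CAGCTG, which 16.3% of promoters have. No matches overlapped within either promoter. A match is not evidence of binding, and no sequence under the listed peaks was read, because no genome of their build was used.

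Myod1, the factor that can turn fibroblasts into muscle, had the most densely marked window of the 3. Its 6 peaks in 60 kb came to 100 per Mb (exact Poisson 95% interval 36.7 to 218), against 17.6 per Mb (16.9 to 18.2) over chromosome 7, a ratio of 5.70. The intervals cover counting error only, and peaks cluster along chromosomes. Of 2487 tiles of 60 kb laid end to end along chromosome 7, 55 (2.21%) held at least as many peaks. Of these, 22 tiles held more than 6, the fullest 10, whereas 1442 tiles were empty. Among tiles with at least 1 peak the share was 5.26%, and over the tiles of all chromosomes 4.26%. The 60 kb just before the window held 4 peaks and the 60 kb just after it 2. Peaks covered 4.09% of the Myod1 window and 0.746% of chromosome 7.

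Of the 6 Myod1 peaks, 3 were listed early. The earliest, at chr7:53608620-53608985 (366 bp), was on line 921, within the first 1.57% of the list, and was the 50th by line among the 2620 peaks of chromosome 7. Next in the list came chr7:53596883-53597258 (376 bp, line 3011) and chr7:53605458-53605905 (448 bp, line 4605). These 3 of 6 peaks were in the first 10% of lines, against 9.05% of chromosome 7. At least 3 such peaks were found in 5 of the 2487 tiles (0.201%), or 0.478% of the tiles with any peak. The tiles also ran over the Myod1 window, so the 5 may include these same peaks. This tile count was added after the early Myod1 peaks had been seen, so it describes them and is not a test. The widest Myod1 peak, chr7:53632049-53632749 (701 bp), was on line 19757 and wider than 84.6% of the peaks of chromosome 7. The remaining members were chr7:53595234-53595519 (286 bp, line 29138) and chr7:53619570-53619847 (278 bp, line 45495). The median width of 371 bp was inside the quartiles of chromosome 7 (215 and 526 bp), and 4 of 6 peaks were above its median of 304.5 bp. In all, 5 of 6 were in the first 50% of lines, against 50.6% of the chromosome. The peak on line 29138 was only just inside that limit, at 49.8%.

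The 6 Myod1 peaks were unevenly spaced. The 4 peaks at the low-coordinate end spanned 13.4 kb between midpoints, with distances of 1.69, 8.61 and 3.12 kb. The next peak followed after 10.9 kb and the widest after a further 12.7 kb. That widest peak was thus 23.6 kb from the earliest-listed one. The median distance was 8.61 kb, against 16.6 kb between neighbours on chromosome 7. The 2 medians are unlike, because distances to peaks outside the window were left out and none inside can exceed its length. By gene order in GRCm38, Otog and Kcnc1 flank Myod1. Which peak lies at the Myod1 promoter or at its known enhancers was not determined, for lack of an mm9 annotation.

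**Figure D1:**
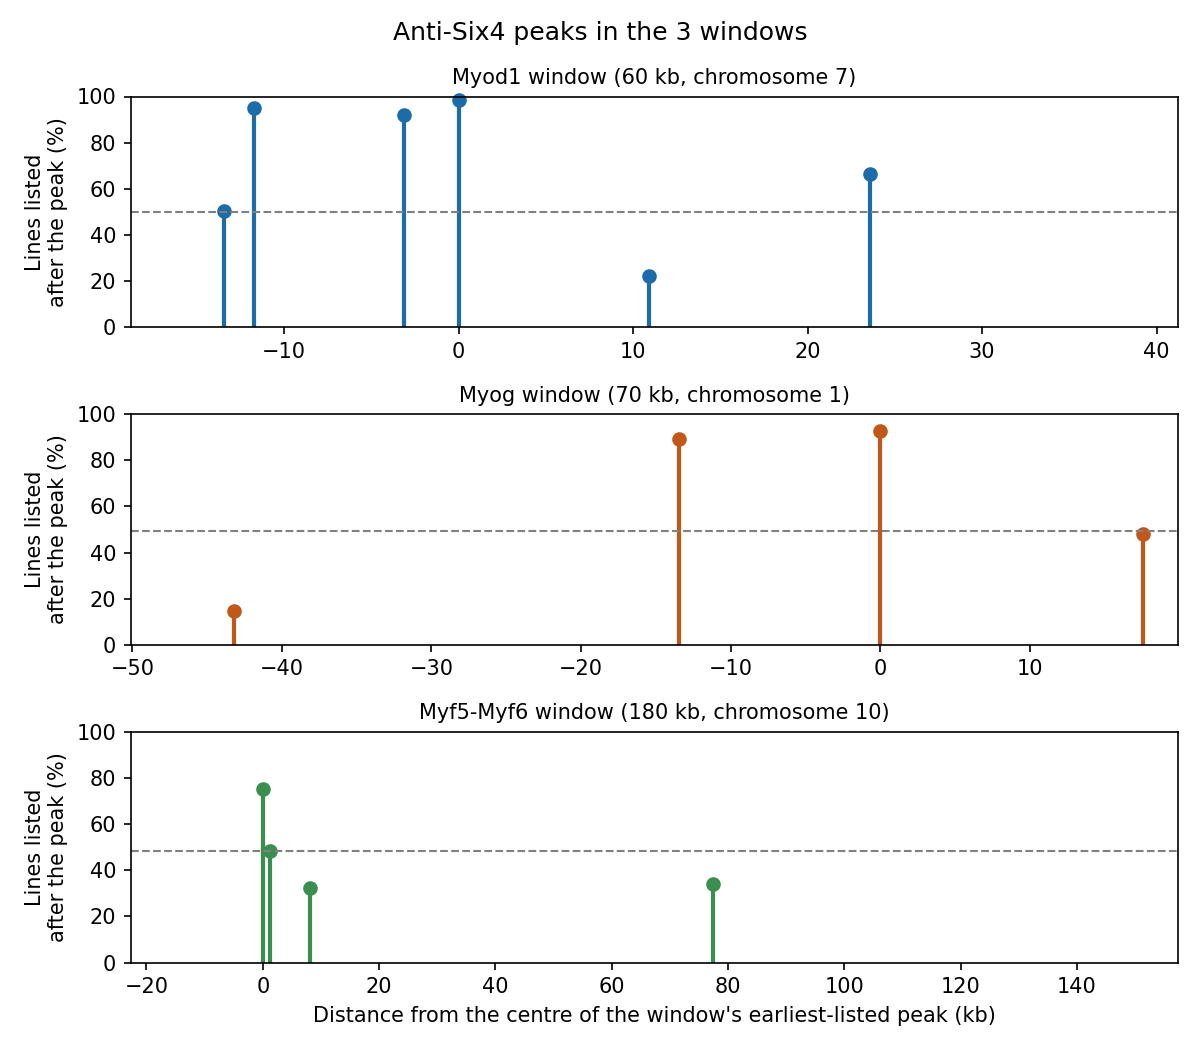
Position of the 14 peaks in the 3 windows, as the distance in kb from the centre of the earliest-listed peak of each window (x axis, whole window shown), against the share of the list's lines that come after the peak (y axis, %; taller is earlier). Each stem is 1 peak and the dashed line is the median of the chromosome; 3 Myod1 stems are near the top, and the Myf5-Myf6 window has 1 stem that stands clear above its line.

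Myog, whose product is needed for myoblasts to become fibres, had fewer but wider peaks. The 4 peaks in 70 kb came to 57.1 per Mb (15.6 to 146), which was 2.74 times the 20.9 per Mb (20.2 to 21.5) of chromosome 1. At least as many peaks were found in 431 of 2773 tiles of 70 kb on that chromosome (15.5%), or 30.3% of those with at least 1 peak. The 70 kb before the window held 1 peak and the 70 kb after it 4. One of the latter, on line 1576, was listed earlier than any peak inside the window. Coverage was 3.10% of the window against 0.789% of chromosome 1.

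The widest of all 14 members was at Myog. It was chr1:136186228-136187109 (882 bp, line 6162), wider than 92.4% of the 4052 peaks of chromosome 1. The earliest-listed Myog peak, chr1:136199958-136200272, was much narrower at 315 bp and stood on line 4350. It was the only one of the 4 in the first 10% of lines, against 9.03% of chromosome 1, and 10.8% of the tiles held at least 1 such peak (21.0% of those with any peak). A 700 bp peak at chr1:136217346-136218045 was on line 30426, and a 275 bp peak at chr1:136156788-136157062 on line 49849. So 2 of 4 were in the first 50% of lines, against 49% of the chromosome. The median width was 507.5 bp, against 261 bp on chromosome 1 (quartiles 200 and 406 bp), and all 4 were above that median. They were spaced at 29.7, 13.4 and 17.6 kb, and the median of 17.6 kb was close to the 15.2 kb of the chromosome. Here too, distances to peaks outside the window were left out. Adora1 and Ppfia4 flank Myog in GRCm38 gene order.

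Over their 180 kb window, Myf5 and Myf6, which lie next to each other between Lin7a and Ptprq, had a peak density near that of their chromosome. The 4 peaks in 180 kb came to 22.2 per Mb (6.05 to 56.9), against 25.1 (24.3 to 26.0) for chromosome 10, a ratio of 0.884. As many peaks or more were found in 313 of 705 tiles of 180 kb (44.4%). The stretches of 180 kb on either side were emptier, with 2 peaks before and 1 after. Coverage was 0.571% of the window and 1.00% of chromosome 10.

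Within that window widths and places in the list were mixed. The widest and earliest-listed was chr10:106922525-106922913 (389 bp) on line 14391. Next to it, 1.16 kb away, lay chr10:106923734-106924015 (282 bp, line 30311), and 6.88 kb further on chr10:106930664-106930849 (186 bp, line 39579). These 3 took up 8.04 kb of the 180 kb, between midpoints. A single peak, chr10:107000090-107000260 (171 bp, line 38592), stood 69.4 kb beyond them, and no peak was listed in the rest of the window. The median distance was 6.88 kb, against 15.5 kb between neighbours on chromosome 10, again without distances to peaks outside the window. None of the 4 was in the first 10% of lines, where 9.53% of chromosome 10 stood, and 1 was in the first 50%, against 48.6%. The median width of 234 bp was below the 264 bp of chromosome 10, with 2 of 4 peaks above that median.

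**Figure D2:**
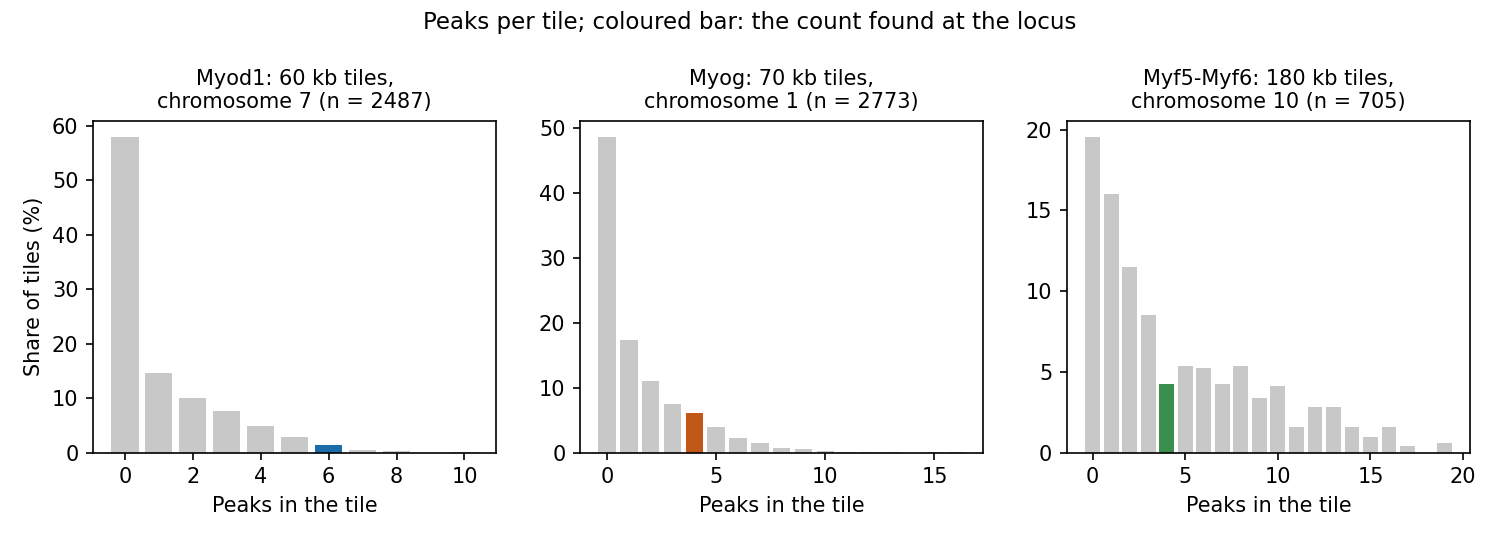
Number of peaks (x axis) in end-to-end tiles of the window's length along the same chromosome, as the share of tiles (y axis, %), for Myod1 (2487 tiles), Myog (2773) and Myf5-Myf6 (705). The coloured bar is the number found at the locus, 6, 4 and 4; it is far to the right for Myod1 and just above the median of 3 for Myf5-Myf6.

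The 3 windows thus ranked Myod1, Myog, Myf5-Myf6 by peak density, but the intervals of neighbours in that order overlap, and those of Myod1 and Myf5-Myf6 overlap as well (36.7 to 218 against 6.05 to 56.9 per Mb). The ranking also depends on the unlike window lengths of 60, 70 and 180 kb. In the longest, 3 of the 4 Myf5-Myf6 peaks lay within 8.04 kb, and the density over a shorter stretch there was not computed. In median place in the list the order was the same, at 20.8%, 31.3% and 58.9% of lines. In median width it was not, since Myog led with 507.5 bp, before Myod1 with 371 bp and Myf5-Myf6 with 234 bp. Their chromosomes had unlike medians of 261, 304.5 and 264 bp, in that order. Median spacing ran differently again, shortest at Myf5-Myf6 with 6.88 kb, then 8.61 kb at Myod1 and 17.6 kb at Myog. With 4 to 6 peaks a window and 1 library, no test of these differences was made.

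Widths were also compared at a given place in the list. Across the list, early lines tend to be wide (Spearman's rho between line number and width -0.64 over 58528 peaks of 1 library, a description). Each member was therefore set beside the 500 lines before and the 500 after it. The earliest Myod1 peak had 366 bp where the lines around it had a median of 811.5 bp, and 6.6% of those lines were narrower. For the other early Myod1 peaks it was 376 against 811 bp (12.4% narrower) and 448 against 771 bp (20.5%), and for the early Myog peak 315 against 778.5 bp (8.4%). All 4 members in the first 10% of lines were thus below the median of their surroundings. Just past that limit, at 10.5% of lines, the 882 bp Myog peak went the other way (711 bp, 66.4% narrower). Of the 10 members after the first 10% of lines, 7 were above the median of their surroundings. These were 3 at Myod1, 3 at Myog and only 1 of the 4 at Myf5-Myf6. A median by definition has as many lines above it as below. The 701 bp peak of Myod1 was wider than 91.3% of the lines around it (median 305 bp). The 700 bp peak of Myog was wider than 95.2% of its own (267 bp). None of the 14 reached 1 kb, but neither did most of the list, where 3751 of 58528 peaks have that width.

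**Figure D3:**
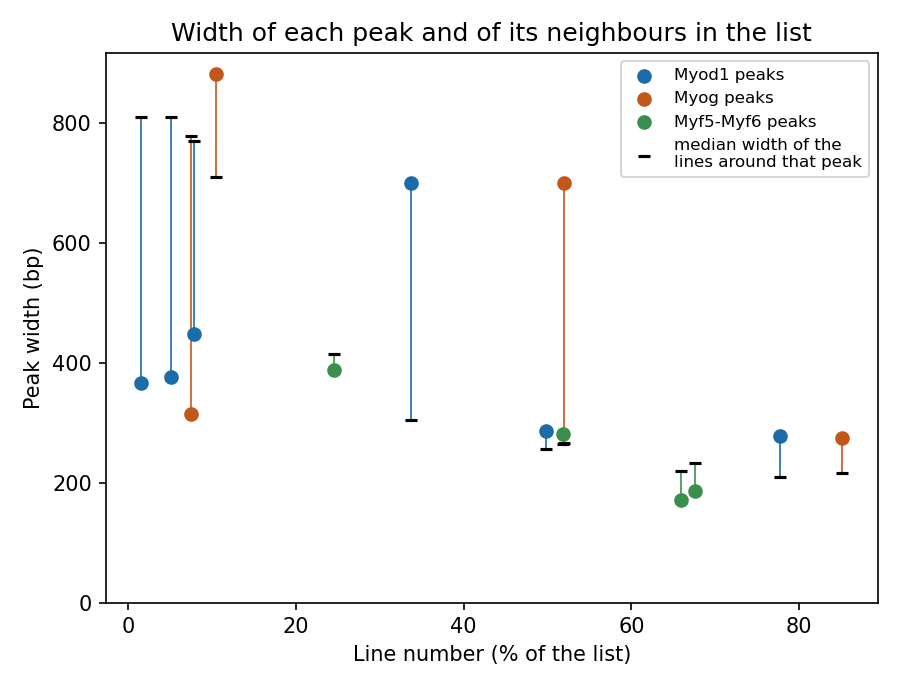
Width of each of the 14 peaks (y axis, bp) against its line number as a share of the list (x axis, %), coloured by locus, joined to a black dash at the median width of the 500 lines before and 500 after it. The 4 peaks in the first 10% of lines have 315 to 448 bp, below dashes at 771 to 811.5 bp, whereas a Myod1 and a Myog peak of about 700 bp sit far above theirs.

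Just outside the windows, the nearest peak was chr7:53651530-53652659 (1130 bp, line 25452), with its midpoint 2.09 kb past the end of the Myod1 window. The other 5 nearest peaks were 8.96 to 20.7 kb from an edge. No member lay across an edge, and counting any overlap gave the same 6, 4 and 4 peaks.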

How the data were processed

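Per the labels, 7 ChIP-seq or input libraries were made, 1 per cell line and antibody. The authors' deposited file used here is the anti-Six4 shNS peak list, which gives each region by its chromosome and its first and last base, with no header or score. The submitters' processing notes name Bowtie, Picard, bedtools, MACS2 2.0 and mm9, without roles or parameters. The threshold and any control library were not stated there. Printed starts count from 1, those of the list from 0.

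Each window was compared with its chromosome over the distance from first to last peak, with end-to-end tiles of its length starting at the first peak's midpoint, and with equal stretches on either side. The window itself was not left out of the tiles. Assembly gaps were not excluded, so empty tiles include unmappable sequence. Intervals are exact Poisson at 95%. Tile counting was checked on simulated data. Every peak in a window was named, and no other gene was given a peak. The windows, genes and motifs were chosen with earlier results of these data known. The comparisons with surrounding lines, and the tiles of early lines, were added after the peaks had been seen. No p-value was computed. Gene order and promoters are from RefSeq GRCm38.p6. Calculations used scipy 1.17.1, pandas 2.3.3 and numpy 2.4.6 in Python 3.11.15, and figures matplotlib 3.10.9.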

Additional observations from a re-analysis of the deposited data

How the results depend on the processing

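Of 111 recomputed values, 91 stayed within 1.5 times the reported one and 20 moved further. The density ratio to the chromosome stayed above 1 for Myod1 and Myog and below 1 for Myf5-Myf6 in every alternative run. Any overlap in place of midpoints, merging of peaks under 500 bp apart, leaving out peaks of the shortest width, and shifted tiles moved none beyond the limit. Apart from shifted tiles, these runs could not change the members. No member lay across an edge, gaps between members were at least 0.82 kb, and none had the shortest width of 165 bp. That their values stayed was thus largely fixed beforehand. The share of tiles with at least as many peaks rose from 2.21% to 5.26% (occupied tiles) and 4.26% (tiles of all chromosomes) at Myod1, and from 15.5% to 30.3% (occupied tiles) at Myog. For early-listed peaks, an alternative added after seeing the data, occupied tiles gave 0.478% and 21.0%. With the first 50% of lines only, the density ratio was 9.38 for Myod1 and 0.454 for Myf5-Myf6, the number of peaks 2 for Myog and 1 for Myf5-Myf6, and coverage 1.71% and 0.216%. Median place in the list then was 7.87%, 8.98% and 24.6% for Myod1, Myog and Myf5-Myf6, as later lines were dropped, and the single Myf5-Myf6 peak had 389 bp and no spacing. With windows widened by 50 kb on each side, Myod1 had 12 peaks at a median of 40.8% of lines, Myog had 9 peaks, and the median spacing at Myf5-Myf6 was 35.7 kb. The looser MEF3 letters TCANGTTNC occurred in 3.23% of promoters in place of 1.21%. No paired analysis was possible because each group has 1 library. Read depth is unknown, so an absent peak is not an absence of binding.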

Other observations

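Other genes of the network around Six4 and the myogenic factors were searched for the same letters in the RefSeq promoters of GRCm38.p6. Of 27 listed genes, 20 were matched by symbol. A gene was counted if any of its promoters held the letters, and some genes have more than 1 promoter. The gene counts below and the shares of all promoters are therefore unlike measures. The MEF3 letters TCAGGTTNC were found in 1 of the 20, Six4 itself, against 1.21% of all promoters. E-box letters were found in 12 of the 20, against 72.3% of all promoters. The E-box CAGCTG was found in 6, namely Tcf12, Id2, Ckm (muscle creatine kinase), Des (desmin), Tnni1 and Aldoa, against 16.3% of all promoters. The loose MEF2 pattern, which does not settle whether a MEF2 site is present, was found in 2, Mef2a and Des, against 3.69% of all promoters. Whether any of these genes has an anti-Six4 peak was not determined here.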
